A study of Mus musculus with 18 samples.

Results

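The fractalkine and CXCL12 chemokine axes were followed through tumors grown from K7M2 cells. The 5 genes were the ligand *Cx3cl1* and its receptor *Cx3cr1*, and the ligand *Cxcl12* with its receptors *Cxcr4* and *Ackr3*, out of 20878 genes measured. They were chosen by name with results of these tumors known, and the study had drawn *Cx3cr1* among genes lower in Balb/c ATRXKD tumors. The differences between ATRXKD and ATRXCT tumors are therefore given as values without a test. The comparison of hosts was tested for the members other than *Cx3cr1*, whose host differences are also given as values. The same Balb/c tumors enter both comparisons, so the host tests of these genes are not independent of the choice.

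K7M2 is a mouse osteosarcoma line from the Balb/c strain. The cells carried, by lentivirus, either a control shRNA (ATRXCT) or a shRNA against *Atrx* (ATRXKD), a chromatin remodeler gene. The grafts grew under the skin of Balb/c mice, which have an intact immune system and share the strain of the cells, or of NSG mice, which lack T, B, and NK cells. RNA was sequenced from 4 Balb/c ATRXCT, 4 Balb/c ATRXKD, 5 NSG ATRXCT, and 5 NSG ATRXKD tumors, 1 tumor per mouse number. The study's methods describe the hosts as female mice aged 6 to 8 weeks, kept in cages of 5 mice, each cage given 1 kind of cells. Cage and knock-down cannot be told apart here.

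Chemokines are small secreted proteins that steer cells through G protein-coupled receptors. *Cx3cl1* encodes fractalkine, which exists as a membrane-tethered adhesion form and as a shed, soluble attractant, and its receptor CX3CR1 is carried by monocytes, many macrophages, microglia, and some NK and T cells. *Cxcl12* encodes a chemokine made by stromal, bone marrow, and endothelial cells that retains CXCR4-bearing hematopoietic cells, while ACKR3 binds the same ligand without classical G protein signaling and removes it from the surroundings.

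On mm10, as in the deposited annotation, *Cx3cl1* lies at chr8:94772180-94782427 on the plus strand, and its single annotated transcript has 3 exons and 3144 nt. *Cx3cr1* lies at chr9:120048683-120068296 on the minus strand, with 1 transcript of 2 exons and 3753 nt. *Cxcl12* lies at chr6:117168535-117181368 on the plus strand, with 3 transcripts of 1878 to 5670 nt and 3 or 4 exons. *Cxcr4*, at chr1:128588199-128592299 on the minus strand, has 2 exons in 1 transcript of 1814 nt. *Ackr3*, at chr1:90203980-90215724 on the plus strand, has 2 transcripts of 2038 to 2321 nt with 2 or 3 exons. No other annotated gene overlapped any of these 5 spans.

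The 250 bases before the annotated start are shown for *Cx3cr1* and *Cxcl12*, the 2 genes whose Balb/c groups did not overlap, because their promoters differ in base composition. The sequences are from RefSeq on GRCm38.p6 and are written 5′ to 3′ on the strand of the gene. Capitals mark the GC box (GGGCGG), the binding core of Sp1-type factors, and the TATA box (TATAAA), each searched on both strands.
Cx3cr1 (chr9:120068297-120068546, minus strand): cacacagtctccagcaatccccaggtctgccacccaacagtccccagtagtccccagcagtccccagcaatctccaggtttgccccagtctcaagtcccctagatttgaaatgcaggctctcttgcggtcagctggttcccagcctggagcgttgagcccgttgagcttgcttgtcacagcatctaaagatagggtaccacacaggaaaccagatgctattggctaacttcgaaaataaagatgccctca
Cxcl12 (chr6:117168285-117168534, plus strand): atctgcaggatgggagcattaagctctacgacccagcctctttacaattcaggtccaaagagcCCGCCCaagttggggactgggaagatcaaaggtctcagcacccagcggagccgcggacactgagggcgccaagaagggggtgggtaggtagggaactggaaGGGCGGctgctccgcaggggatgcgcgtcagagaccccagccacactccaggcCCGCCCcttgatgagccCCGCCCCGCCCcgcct

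The *Cx3cr1* stretch held 53.6% G and C and 4 CG pairs, and neither motif was found in it. The *Cxcl12* stretch held 64.4% G and C and 14 CG pairs, with 4 non-overlapping GC boxes and no TATA box. Over all 32851 promoters of the same length, the medians were 52.4% G and C and 6 CG pairs. A GC box was found in 32.7% of them and a TATA box in 12.4%. The *Cx3cl1* stretch had 64.8% G and C with 1 GC box and 1 TATA box, that of *Cxcr4* had 61.2% with 3 GC boxes and a TATA box read on both strands, and that of *Ackr3* had 54.0% with 1 of each. The motif matches are a description of letters, and binding was not measured.

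Each tumor yielded an estimated 15150000 to 25200000 fragments (median 20300000), and the 5 genes were covered by at least 123 estimated fragments in every tumor. Levels are given as FPKM, that is fragments scaled to transcript length and library size, which allows comparison between genes, and differences on the deposited log2 (FPKM + 1) scale. *Atrx*, the gene targeted, ranged from 10.3 to 26.0 FPKM in Balb/c ATRXCT and from 7.88 to 21.5 FPKM in Balb/c ATRXKD tumors. In NSG hosts it ranged from 11.6 to 24.4 FPKM in ATRXCT and from 8.42 to 16.4 FPKM in ATRXKD tumors, so the groups overlapped in both hosts. The ATRXKD minus ATRXCT difference of its mean log2 (FPKM + 1) was −0.34 in Balb/c and −0.74 in NSG hosts. Libraries differed in their trend with transcript length, with slopes from −0.156 to 0.239, and the part of this trend in the *Atrx* values was not tested. By western blot, the study reported loss of ATRX protein in the knock-down K7M2 cells. In bulk tumors the RNA of grafted and host cells is mixed, and fewer cells of a type and less RNA per cell cannot be told apart. The libraries of both hosts differed in 4 Y-linked genes, whose summed level was 0 to 0.0115 FPKM in the 8 Balb/c tumors and 13.1 to 34.3 FPKM in the 10 NSG tumors, which goes against the stated sex of the NSG hosts. Within NSG hosts this sum was 24.2 to 34.3 FPKM in ATRXCT and 13.1 to 21.2 FPKM in ATRXKD tumors, and all 4 genes were lower in ATRXKD without overlap, with a median log2 (FPKM + 1) difference of −0.60. Strain, immune status, and host sex cannot be told apart in any comparison of hosts. Of the 8 osteoblast markers, *Bglap* was at 0 in all Balb/c ATRXCT tumors and *Ibsp* in all Balb/c ATRXKD and NSG ATRXKD tumors, and 4 or 5 of the 8 passed the filter on low values in each comparison.

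*Cxcl12* was the most abundant of the 5 genes in every tumor, above 96.2% of all genes by its mean. Its receptors followed at 12.3 to 23.8 FPKM for *Cxcr4* and 14.3 to 31.5 FPKM for *Ackr3*. *Cx3cr1* ranged from 1.69 to 30.0 FPKM, and *Cx3cl1* ranged from 2.73 to 12.03 FPKM. In Balb/c ATRXCT tumors, *Cx3cr1* ranked just below *Cxcl12*, although its range overlapped that of *Cxcr4*, as that of *Cxcr4* did with *Ackr3*. In both ATRXKD groups, *Cx3cr1* had the lowest mean of the 5, with a range overlapping that of its ligand. In NSG ATRXCT tumors the order was *Cxcl12*, *Ackr3*, *Cxcr4*, *Cx3cr1*, and *Cx3cl1*, and the neighbors after *Cxcl12* overlapped. NSG ATRXKD tumors had no overlap between *Cxcl12*, *Ackr3*, *Cxcr4*, and *Cx3cl1*, in that descending order.

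**Figure D1:**
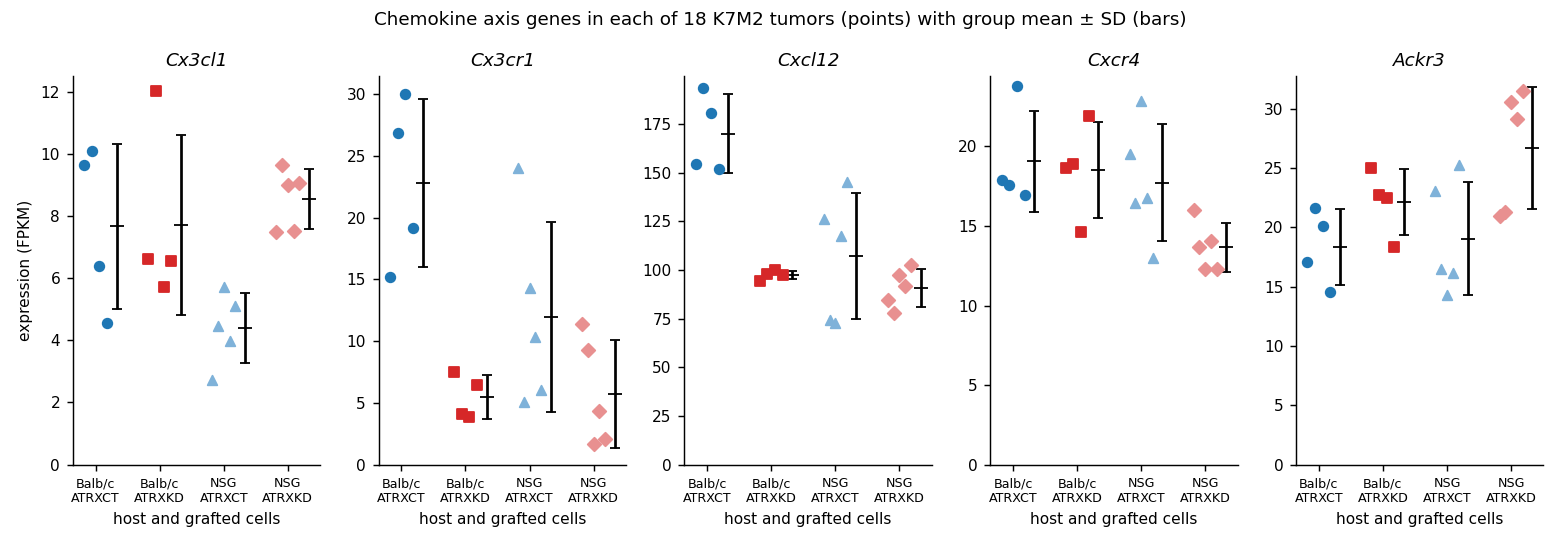
Expression (FPKM, linear axes from 0) of the 5 chemokine axis genes in each of the 18 tumors, with 1 point per tumor and the group mean ± SD beside the points. For *Cx3cr1*, the 4 Balb/c ATRXCT tumors lie between 15.2 and 30.0 FPKM, all above the 4 Balb/c ATRXKD tumors, and *Cxcl12* separates the same groups.

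The fractalkine receptor was lower in Balb/c ATRXKD tumors. *Cx3cr1* was at 15.2, 26.9, 30.0, and 19.2 FPKM in the Balb/c ATRXCT tumors of mice 41, 43, 44, and 45. It was at 7.49, 4.09, 3.87, and 6.48 FPKM in the Balb/c ATRXKD tumors of mice 56, 58, 59, and 60. The highest ATRXKD tumor thus stayed below the lowest ATRXCT tumor. The group means were 22.8 ± 6.81 FPKM (SD, n = 4) and 5.49 ± 1.79 FPKM (SD, n = 4), a ratio of 4.16 in favor of ATRXCT. The log2 (FPKM + 1) difference was −1.87 (SE 0.26), and it was −2.02 without the tumors of mice 45 and 60, in which keratinocyte markers were high. *Cxcl12* was the other member without overlap, and the share of all 14701 genes tested whose Balb/c groups did not overlap was 1.93% lower and 1.25% higher in ATRXKD. These shares are given as background only, since the choice of genes drew on this contrast.

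In NSG hosts the same receptor spread more widely within groups. *Cx3cr1* was at 24.0, 5.09, 14.3, 10.3, and 6.03 FPKM in the NSG ATRXCT tumors of mice 1 to 5. It was at 11.4, 9.25, 1.69, 4.31, and 2.07 FPKM in the NSG ATRXKD tumors of mice 26 to 30. Tumors 26 and 27 of the ATRXKD group were above the lowest 2 ATRXCT tumors, so the groups overlapped. The means were 11.96 ± 7.69 and 5.74 ± 4.36 FPKM (SD, n = 5 each), and the log2 (FPKM + 1) difference was −1.01 (SE 0.49). The knock-down difference in Balb/c minus that in NSG hosts was −0.86 (SE 0.64) on this scale, untested.

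The ligand of this receptor showed the other pattern. *Cx3cl1* was at 9.65, 10.1, 6.41, and 4.55 FPKM in Balb/c ATRXCT and at 6.60, 12.03, 5.71, and 6.56 FPKM in Balb/c ATRXKD tumors, in the order of mouse numbers. These groups overlapped, with means of 7.67 ± 2.65 and 7.73 ± 2.90 FPKM (SD, n = 4 each) and a log2 (FPKM + 1) difference of 0.01 (SE 0.28). Its sign changed with the tumor left out. In NSG hosts, *Cx3cl1* was at 2.73, 4.48, 5.72, 3.98, and 5.09 FPKM in ATRXCT tumors and at 7.50, 9.66, 9.001, 7.53, and 9.06 FPKM in ATRXKD tumors. All 5 ATRXKD tumors were above all 5 ATRXCT tumors. The means were 4.40 ± 1.14 and 8.55 ± 0.978 FPKM (SD, n = 5 each), and the log2 (FPKM + 1) difference was 0.85 (SE 0.15). Of 14654 genes tested in NSG hosts, 4.36% were higher and 3.14% lower in ATRXKD tumors without overlap. The 4 Y-linked genes were lower without overlap in the same comparison, none of them called, and their part in the NSG differences was not tested. The difference in Balb/c minus that in NSG hosts was −0.83 (SE 0.32), untested.

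*Cxcl12* was also lower in Balb/c ATRXKD tumors, by a smaller factor and with little spread. The ATRXCT tumors were at 154, 194, 181, and 152 FPKM, and the ATRXKD tumors at 94.6, 97.9, 100.1, and 97.2 FPKM. Every ATRXCT tumor was above every ATRXKD tumor. Means were 170.2 ± 20.3 and 97.5 ± 2.26 FPKM (SD, n = 4 each), and the log2 (FPKM + 1) difference was −0.79 (SE 0.13), or −0.84 without mice 45 and 60. In NSG ATRXCT tumors the ligand was at 126, 74.5, 72.8, 117, and 145 FPKM, and in NSG ATRXKD tumors at 84.4, 77.9, 97.4, 91.8, and 102 FPKM. The NSG ATRXCT tumors of mice 2 and 3 lay below every ATRXKD tumor, and the other 3 lay above every ATRXKD tumor. The means were 107 ± 32.3 and 90.8 ± 9.81 FPKM (SD, n = 5 each), with a log2 (FPKM + 1) difference of −0.19 (SE 0.19). The difference in Balb/c minus that in NSG hosts was −0.60 (SE 0.24), untested.

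Neither receptor of CXCL12 separated ATRXKD from ATRXCT tumors. *Cxcr4* was at 17.9, 17.6, 23.8, and 16.9 FPKM in Balb/c ATRXCT and at 18.6, 18.9, 14.6, and 21.9 FPKM in Balb/c ATRXKD tumors, a log2 (FPKM + 1) difference of −0.04 (SE 0.16). In NSG hosts it was at 19.5, 16.4, 22.9, 16.7, and 13.0 FPKM in ATRXCT and at 16.0, 13.7, 12.3, 14.0, and 12.3 FPKM in ATRXKD tumors, a difference of −0.34 (SE 0.14). Both pairs of groups overlapped. *Ackr3* was at 17.1, 21.6, 20.1, and 14.5 FPKM in Balb/c ATRXCT and at 25.0, 22.7, 22.4, and 18.3 FPKM in Balb/c ATRXKD tumors, a difference of 0.26 (SE 0.16). In NSG hosts it was at 23.1, 16.5, 14.3, 16.2, and 25.2 FPKM in ATRXCT and at 21.0, 21.3, 30.6, 29.1, and 31.5 FPKM in ATRXKD tumors, a difference of 0.48 (SE 0.18). Again the groups overlapped in both hosts. The per-tumor ratio of *Cxcr4* to *Ackr3* FPKM averaged 1.05 ± 0.171 in Balb/c ATRXCT, 0.857 ± 0.239 in Balb/c ATRXKD, 0.999 ± 0.393 in NSG ATRXCT, and 0.535 ± 0.161 in NSG ATRXKD tumors (SD). Its lowest value was 0.391 and its highest 1.60, both in NSG hosts, and the ranges of ATRXCT and ATRXKD overlapped in each host.

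**Figure D2:**
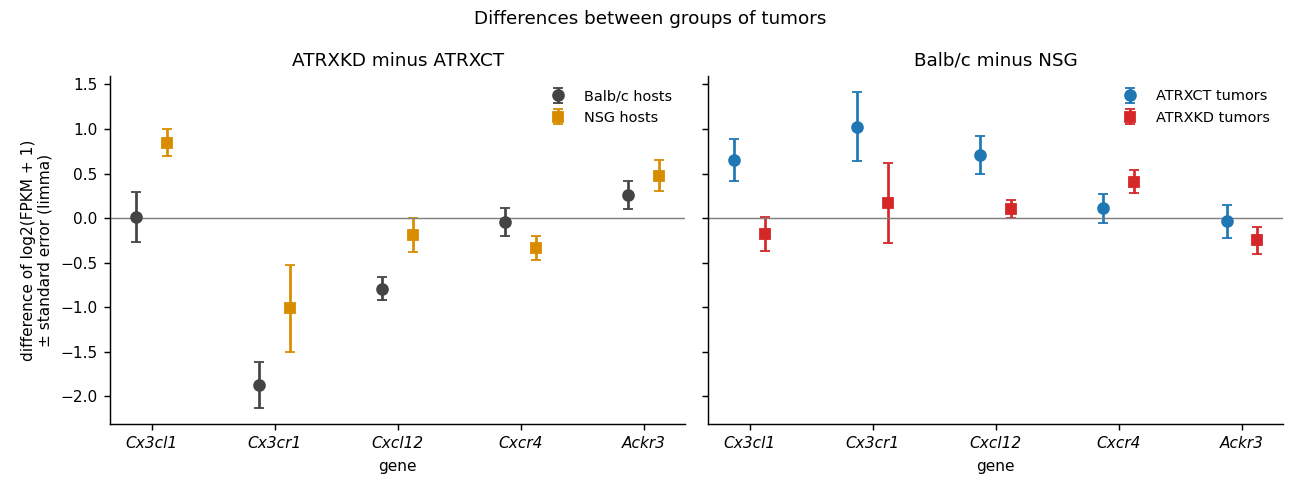
Differences of mean log2 (FPKM + 1) with their standard errors from limma, ATRXKD minus ATRXCT in each host (left) and Balb/c minus NSG for each kind of cells (right). *Cx3cr1* in Balb/c hosts is the lowest point at −1.87, and *Cx3cl1* in NSG hosts the highest of the left panel at 0.85.

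The comparison of hosts asked how far these levels differed when the same cells grew with or without lymphocytes. A gene was called when its limma p-value, with Benjamini-Hochberg adjustment over all genes tested, was under 0.05 and its fold change at least 2. None of *Cx3cl1*, *Cxcl12*, *Cxcr4*, and *Ackr3* was called in either kind of tumor. Of all genes, 1.43% of 14828 were called in ATRXCT and 1.39% of 14669 in ATRXKD tumors. Without adjustment, 19.3% of all genes had a p under 0.05 in ATRXCT and 16.4% in ATRXKD tumors. *Cxcl12* and *Cx3cl1* were among them in ATRXCT tumors, with levels in Balb/c above those in NSG hosts by 0.71 (SE 0.22, adjusted p = 0.118) and 0.66 (SE 0.24, adjusted p = 0.174) on the log2 (FPKM + 1) scale of limma. *Cx3cr1*, given without a test because the study drew it from these Balb/c tumors, had a difference of 1.03 (SE 0.39). Of these, only the *Cxcl12* groups did not overlap, as for 7.57% of all genes. With all 4 groups in 1 limma fit, the adjusted p of *Cxcl12* was 0.0207, with its fold still under the minimum. *Cxcr4* and *Ackr3* differed by 0.11 (SE 0.16) and −0.03 (SE 0.18), with adjusted p of 0.710 and 0.929 in limma. In ATRXKD tumors, *Cxcr4* was the single tested member with an unadjusted p under 0.05, with a difference of 0.41 (SE 0.13, limma adjusted p = 0.140). Its groups overlapped. *Cx3cl1*, *Cxcl12*, and *Ackr3* differed by −0.25 to 0.11, with limma adjusted p of 0.457 to 0.682, and *Cx3cr1* by 0.17 (SE 0.45). None of the 5 separated the hosts there, against 8.13% of all genes.

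Around these 5 genes, 22 partners of the axes were examined, namely proteases that shed or trim the ligands, integrins that bind fractalkine, other ligands of the receptors, and arrestins, kinases, and G proteins below them. In Balb/c hosts the knock-down called 0 of the 22 by limma, against 0.0068% of all genes, that is *Mcpt2* alone, which encodes a mast cell protease. At an unadjusted p under 0.05, 2 partners were higher and 3 lower, beside 4.14% of all genes in either direction, and the median difference was 0.01, against −0.003 for all genes. *Itgav* and *Itgb1*, integrin chains named here after their values were seen, were the 2 partners without overlap, both lower in ATRXKD. Of all genes, 1.93% were lower and 1.25% higher without overlap. *Itgav* was at 70.6 ± 12.7 FPKM in ATRXCT and 43.0 ± 7.83 FPKM in ATRXKD tumors (SD, n = 4 each), with a limma adjusted p of 0.565. *Itgb1* was at 196 ± 5.71 and 162 ± 4.87 FPKM (SD, n = 4 each), with a limma adjusted p of 0.999. The NSG groups overlapped for both genes. There *Itgav* was at 40.9 ± 8.06 FPKM in ATRXCT and 39.3 ± 8.46 FPKM in ATRXKD tumors (SD). *Itgb1* went the other way, from 152 ± 17.4 FPKM in NSG ATRXCT to 185 ± 14.2 FPKM in NSG ATRXKD tumors (SD). In NSG hosts, limma called 0 of the 22 partners, against 0.464% of all genes, with a median of 0.03. At an unadjusted p under 0.05, 2 were higher and 3 lower, a share near the 26.3% of all genes.

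Between hosts, limma called 2 of the 22 partners in ATRXCT tumors, beside 1.43% of all genes, and 3 in ATRXKD tumors, beside 1.39%. *Cd74*, the invariant chain of MHC class II and a receptor for the CXCR4 ligand MIF, was higher in Balb/c hosts in both. It was at 372 ± 162 against 140 ± 39.1 FPKM in ATRXCT (adjusted p = 0.0447, limma) and 430 ± 134 against 166 ± 36.5 FPKM in ATRXKD tumors (SD, adjusted p = 0.00981, limma). *Cxcl14*, a chemokine reported to bind CXCR4, was lower in Balb/c hosts, at 7.42 ± 2.38 against 17.6 ± 5.27 FPKM in ATRXCT (adjusted p = 0.0417, limma) and 4.74 ± 0.828 against 17.7 ± 7.73 FPKM in ATRXKD tumors (SD, adjusted p = 0.0123, limma). In ATRXCT tumors, both calls were lost without a filter on low values and with most single tumors left out, at adjusted p of up to 0.151 for *Cd74* and 0.115 for *Cxcl14*. *Itga4*, the integrin chain that pairs with *Itgb1* as VLA-4, was higher in Balb/c ATRXKD tumors at 6.97 ± 2.21 against 2.51 ± 0.458 FPKM (SD, adjusted p = 0.00668, limma), although its fold fell under the minimum with library weights.

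The 20 other chemokine receptor genes placed the members within their family. By mean FPKM over 22 receptors, *Ccr1* had rank 1 in every group, and *Cx3cr1* had rank 2 in Balb/c ATRXCT, rank 7 in Balb/c ATRXKD, rank 5 in NSG ATRXCT, and rank 6 in NSG ATRXKD tumors. *Cxcr4* had rank 3 or 4 in all groups, and *Ackr3* rank 2 to 5. No other receptor was called by limma for the knock-down, among 17 tested in Balb/c and 12 tested in NSG hosts. Their median differences were 0.07 and 0.05, with 1 higher in Balb/c and 3 lower in NSG hosts at an unadjusted p under 0.05, beside the 4.14% and 26.3% of all genes. *Cxcr6*, a receptor of activated T and NK cells, was at 6.38 ± 3.02 FPKM in Balb/c ATRXCT and 0.0805 ± 0.0506 FPKM in NSG ATRXCT tumors (SD, adjusted p = 1.0e-04, limma), and it was also called in ATRXKD tumors (5.63 ± 2.52 against 0.0255 ± 0.0294 FPKM).

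**Figure D3:**
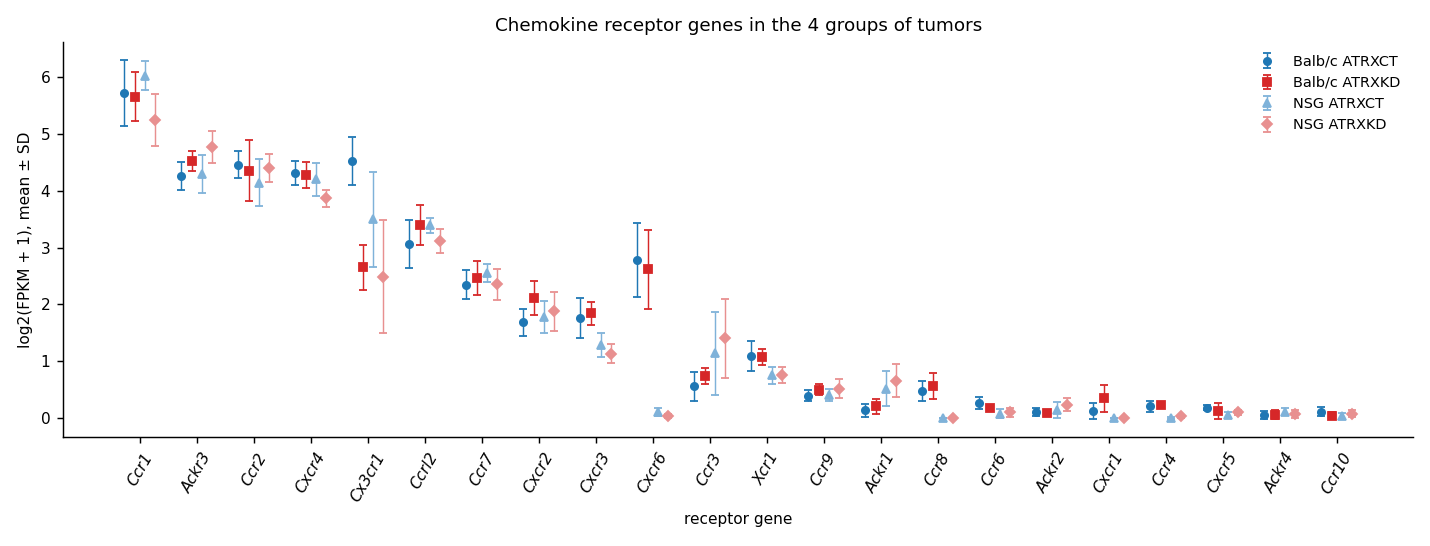
Mean ± SD of log2 (FPKM + 1) of 22 chemokine receptor genes in the 4 groups (n = 4 Balb/c and n = 5 NSG tumors per group), ordered by level. *Cxcr6* is near 0 in NSG tumors, and *Cx3cr1* shows its highest mean, 4.53, in Balb/c ATRXCT tumors.

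Markers of the cells that could carry these genes were followed in the same tumors. The 10 macrophage genes summed to 2124 to 3452 FPKM in Balb/c ATRXCT and 1726 to 3067 FPKM in Balb/c ATRXKD tumors. None was at 0, none separated the groups, and their median difference was −0.13, beside −1.87 for *Cx3cr1*. The 6 genes of long-lived resident macrophages, which include microglia-type genes such as *P2ry12*, had a median difference of −0.38. They summed to 87.3 to 231 FPKM and 62.6 to 126 FPKM. In NSG hosts the macrophage genes summed to 2560 to 3494 FPKM in ATRXCT and 1647 to 2921 FPKM in ATRXKD tumors, with a median of −0.48, with 9 of the 10 lower and 1 higher at an unadjusted p under 0.05, beside 26.3% of all genes. The resident macrophage genes had a median of −0.52 there.

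The 10 mast cell genes, a cell type in which the study took interest on these same tumors, were mostly lower in Balb/c ATRXKD tumors. They summed to 189 to 442 FPKM in ATRXCT and 49.9 to 125 FPKM in ATRXKD tumors, with a median difference of −1.58. Of the 10, 7 were lower without overlap, beside 1.93% of all genes, while *Kit*, *Hdc*, and *Gata2* overlapped. After each value was centered on its group mean, the list had Pearson's r of −0.12 with *Cx3cr1* and 0.54 with *Cxcl12* across the 18 tumors. In NSG hosts their median was 0.46, with sums of 26.5 to 132 FPKM in ATRXCT and 63.5 to 119 FPKM in ATRXKD tumors. Endothelial genes had medians of 0.52 in Balb/c and 0.70 in NSG hosts, beside *Cx3cl1* at 0.01 and 0.85. The part of any of these cell types in the values of the chemokine genes was not tested.

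T cell genes summed to 30.3 to 56.6 FPKM over the Balb/c and 1.37 to 7.11 FPKM over the NSG tumors, with *Cd3g* at 0 in all NSG ATRXCT and *Cd3e* in all NSG ATRXKD tumors, and NK cell genes to 54.5 to 343 FPKM and 0.692 to 2.55 FPKM. In the same NSG tumors, *Cx3cr1* ranged from 5.09 to 24.0 FPKM in ATRXCT and from 1.69 to 11.4 FPKM in ATRXKD. Which cells carried *Cx3cr1* was not tested. For the knock-down in Balb/c hosts, medians were −0.01 for T cell, 0.23 for NK cell, 0.06 for pericyte, 0.02 for fibroblast, 0.01 for osteoblast, −0.49 for keratinocyte, and −0.71 for skeletal muscle genes. In NSG hosts they were −0.06, −0.04, 0.02, 0.29, 0.08, 0.11, and −0.10 in the same order. The NSG medians rest on the genes that passed the filter on low values. These were only 3 of 10 T cell, 2 of 8 NK cell, and 5 of 8 keratinocyte genes. Keratinocyte genes summed to 13.1, 9.85, and 16.2 FPKM in the NSG ATRXKD tumors of mice 26, 27, and 29. They summed to 83.7 FPKM in the Balb/c ATRXCT tumor of mouse 45 and to 13.9 FPKM in the Balb/c ATRXKD tumor of mouse 60. Skeletal muscle genes summed to 4.48 to 332 FPKM in NSG ATRXCT and 1.16 to 471 FPKM in NSG ATRXKD tumors. The part of these tissues in the NSG differences was not tested.

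**Figure D4:**
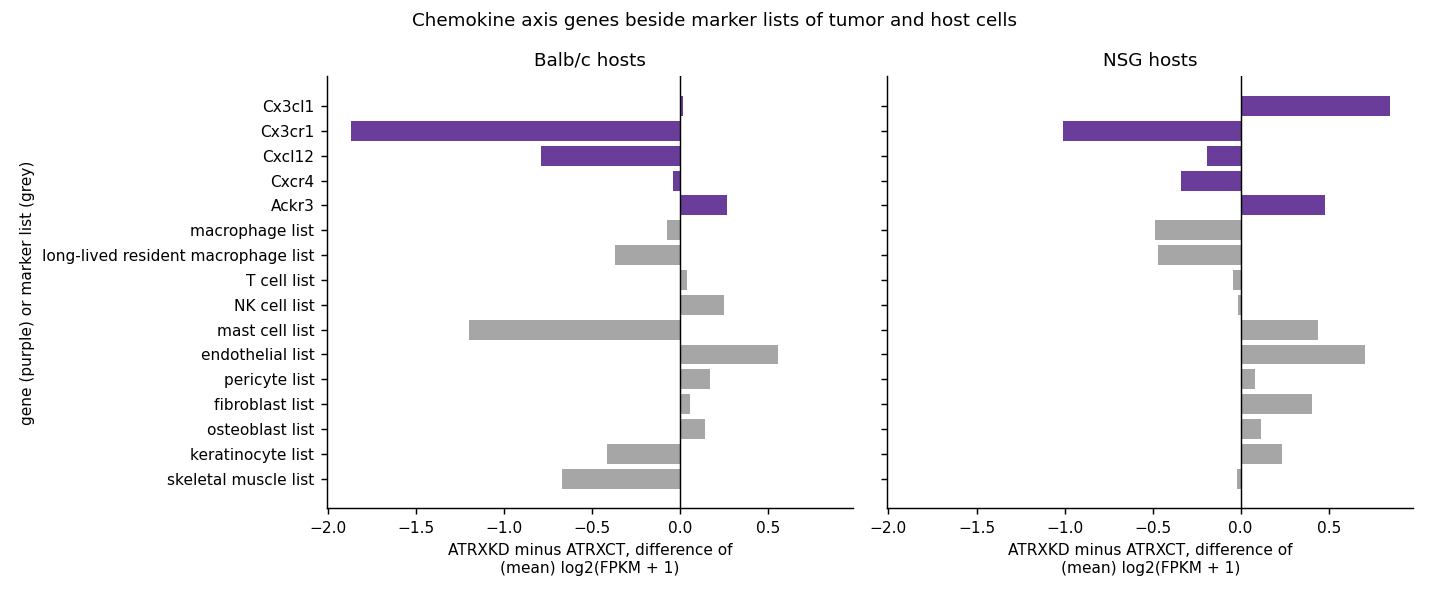
ATRXKD minus ATRXCT difference of log2 (FPKM + 1) for the 5 genes (purple) and of the mean log2 (FPKM + 1) over each of 11 marker lists (grey), in Balb/c and NSG hosts on the same axis. The mast cell list is at −1.20 in Balb/c and 0.44 in NSG hosts, and the macrophage list at −0.08 and −0.49.

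Pooled over the groups, the members varied within groups in 2 pairs. After each value was centered on its group mean, *Cxcl12* and *Ackr3* correlated across the 18 tumors with Pearson's r of 0.77 and Spearman's rho of 0.80, and r was 0.77 without the 2 tumors farthest from the median of *Cxcl12*. *Cx3cr1* and *Cxcr4* had r of 0.66 and rho of 0.70, and r of 0.61 without the 2 farthest tumors. Without centering, r was −0.05 for *Cxcl12* and *Ackr3* and 0.65 for *Cx3cr1* and *Cxcr4*. Not every group followed the pooled pattern: among Balb/c ATRXKD tumors, that of mouse 56 was lowest in *Cxcl12* and highest in *Ackr3*. The other 8 pairs had centered r of −0.41 to 0.07, among them *Cxcl12* with *Cxcr4* at −0.40 and *Cx3cl1* with *Cx3cr1* at −0.27. Tumors share a library preparation, and the values of 1 tumor share its depth and composition, so these are descriptions. The macrophage list had r of 0.59 with *Cxcr4* and 0.23 with *Cx3cr1*. Over the 11 marker lists, r with *Cxcr4* ran from −0.25 (mast cell) to 0.59 (macrophage). For *Cx3cr1* it ran from −0.59 (fibroblast) to 0.48 (pericyte), and for *Cx3cl1* from −0.54 (keratinocyte) to 0.42 (fibroblast).

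**Figure D5:**
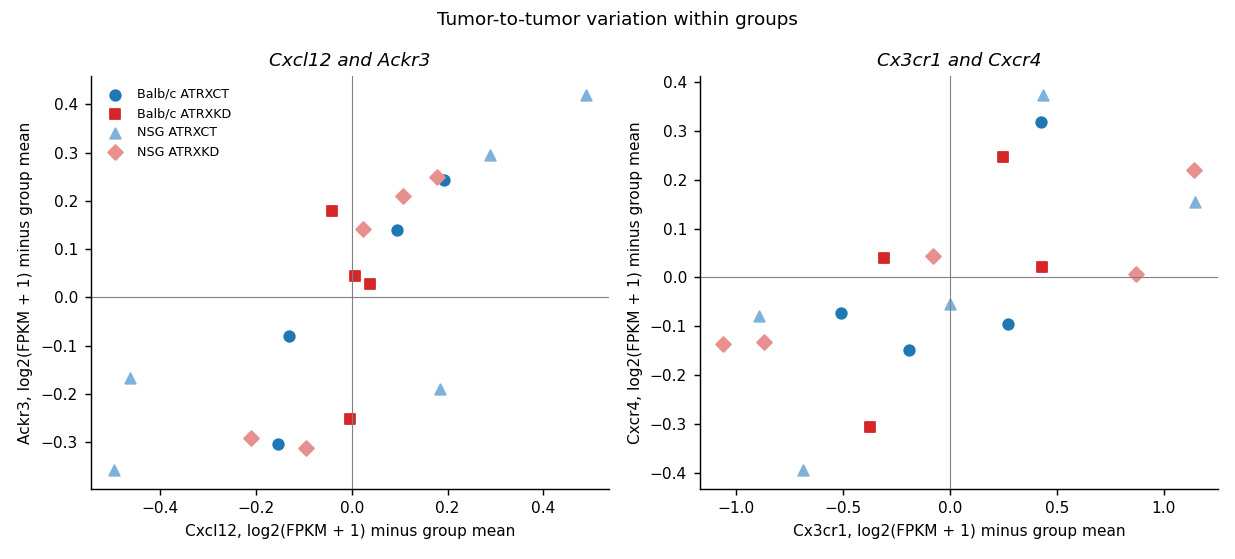
Deviation of each of 18 tumors from its group mean in log2 (FPKM + 1), for *Cxcl12* and *Ackr3* (left) and *Cx3cr1* and *Cxcr4* (right). Most points run from lower left to upper right in both panels, with r of 0.77 and 0.66.

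Among the 12180 genes that averaged 1 FPKM or more, those most like *Cx3cr1* after centering were *Lpcat2* (r = 0.94), *Pilra* (r = 0.92), *Rasal3* (r = 0.86), *Acsl4*, and *Slamf6* over the 18 tumors. The closest to *Cxcr4* were *Slco2b1* (r = 0.90), *Ppp1r3b*, *Cybb*, *Il10ra*, and *Gpr65*. *Cybb* encodes the phagocyte oxidase subunit and *Il10ra* the receptor of interleukin 10. *Cxcl12* was nearest to *Parpbp* (r = 0.92), *Ccng2*, *Tmem263*, *Nectin3*, and *Spic*. *Ackr3* was nearest to *Oaf* (r = 0.90), *Jmjd6*, *Fam114a1*, *Arhgap29*, and *Fst*, the last encoding the activin antagonist follistatin. *Cx3cl1* had the weakest neighbors, *Il17rc* (r = 0.83), *C3*, *Kat2b*, *Idua*, and *Glmp*, where *C3* encodes the central complement component.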

How the data were processed

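RNA of 18 K7M2 tumors was analysed, with groups and mouse numbers taken from the labels. The authors aligned paired reads of 75 bp to mm10 with STAR 2.6.0c, dropped PCR duplicates and reads of a quality under 20, and obtained expression of RefSeq genes from Cufflinks 2.2.1. The deposited values are log2 (FPKM + 1) of 20970 entries, of which 92 are spike-ins and were left out. Base 2 was settled from the values, since FPKM times transcript length summed to 1.04 to 1.06 times its known total in base 2, while the natural log gave 7.69 to 9.66 times. Fragments were estimated from steps between low values with a fragment length of 160 nt. Between 35.5% and 39.9% of values lay within 0.1 of a whole fragment, so whole reads were not recovered and no count test was run. A floor of 3 fragments was at most 0.120 FPKM for the 5 genes, which covers counting error only.

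Groups were compared in R 4.3.3 with limma 3.58.1 (trend) on log2 (FPKM + 1), pseudocount 1, restricted to genes averaging 0.1 FPKM or more over the 2 groups compared, with Benjamini-Hochberg adjustment, after the steps were tested on simulated data. P-values measure the spread between tumors of 1 group. Tables and plots were made in Python 3.11.15. The members and lists were chosen with earlier results of these data known. Genes were named by rule: the 5 members, genes of the 2 lists called in any contrast, and for each member the 5 genes with the highest centered r. *Itgav* and *Itgb1* were named outside this rule after their values were seen, and *Ccr1* for its rank. *Atrx*, *Mcpt2*, and some marker genes were named as context. *Grk2* and *Grk3* were matched as *Adrbk1* and *Adrbk2*. The alternatives were another pseudocount, other filters on low values, median-ratio scaling, removal of a length trend, library weights, a fit of all groups, and leaving out each tumor. For the knock-down differences of the members, the other filters, library weights, and the fit of all groups were not among the alternatives. A gene of the receptor list is not reported here.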

Additional observations from a re-analysis of the deposited data

Results flagged for a closer look

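Among 64 groups of values checked (5 genes and 11 marker lists in 4 groups), 3 had a tumor that stood apart from the others by Dixon's criterion, where chance gives about 3.2. *Cxcr4* in the Balb/c ATRXCT tumor of mouse 44 was at 4.63 log2 (FPKM + 1), above the other 3 tumors of its group. The mean log2 (FPKM + 1) of the 8 keratinocyte genes was 2.63 in the Balb/c ATRXCT tumor of mouse 45 and 0.966 in the Balb/c ATRXKD tumor of mouse 60, each above the other 3 tumors of its group. Leaving out both tumors was added after seeing the data, and the ATRXKD minus ATRXCT differences of *Cx3cr1* and *Cxcl12* were then −2.02 and −0.84.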

How the results depend on the processing

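Reversal of direction was checked only for calls of single members between hosts. With no such call, the check could not show a reversal. Host comparisons called none of *Cx3cl1*, *Cxcl12*, *Cxcr4*, and *Ackr3* under any alternative run. With library weights, limma's adjusted p still fell under 0.05 for *Cx3cl1* in ATRXCT tumors (0.00797, with 0.00797 to 0.417 over the alternatives). It did so too for *Cxcr4* in ATRXKD tumors (0.0358, with 0.0358 to 0.320). With a fit of all 4 groups, limma's adjusted p fell under 0.05 for *Cxcl12* in ATRXCT tumors (0.0207, with 0.0207 to 0.298). For the knock-down in Balb/c hosts, *Cx3cr1* ranged from −2.04 to −1.73 and *Cxcl12* from −0.84 to −0.73 over 12 alternatives, while *Cx3cl1* (−0.20 to 0.15) and *Cxcr4* (−0.17 to 0.07) crossed 0. In NSG hosts the 5 differences kept their sign in all 13 alternatives, *Cx3cl1* at 0.72 to 0.98 and *Cx3cr1* at −1.30 to −0.73. These knock-down ranges cover the pseudocount, scaling, length trend, and left-out tumors, and library weights were not included.

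The partner and receptor genes called between hosts in ATRXCT tumors numbered 3, and 5 with a pseudocount of 0.1, 1 without a filter on low values, and 1 to 4 when 1 tumor was left out, with 1 without any of mice 41, 43, and 45 (Balb/c) or 1, 2, and 4 (NSG). In ATRXKD tumors they numbered 5, and 8 with a pseudocount of 0.1. The causes were not tested. No paired analysis was possible because the groups share no mouse numbers. With 4 or 5 tumors per group, a p above the threshold does not show that levels were alike, and depth did not limit the 5 genes.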
